A study of Mus musculus with 96 samples.

Results

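The comparison concerns hepatocytes, the main metabolic cells of the liver, taken 4 h after lights on (zeitgeber time 4, ZT4) from mice labelled as lacking the nuclear receptors REV-ERBα and REV-ERBβ in these cells and from their controls. It comprises 6 RNA-Seq libraries of the 96 in the series, chosen by their titles: 3 labelled Control and 3 labelled RevDKO, the latter with the genotype ReverbhDKO. All 6 came from male C57BL/6J mice that carried floxed Rev-erbα and Rev-erbβ alleles and ate the diet D12492i, high in fat and sucrose, for 4 weeks under a cycle of 12 h light and 12 h dark. Control mice had received AAV-TBG-GFP and RevDKO mice AAV-TBG-CRE, a virus in which the hepatocyte promoter TBG drives the recombinase, at 8 weeks of age, so that virus injection was common to both groups and deletion was directed to hepatocytes of adult mice. The labels give 3 libraries per group as replicates but do not tie them to named animals, so p-values measure the spread between libraries. Each library is named here by its group and its number in the title.

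REV-ERBα, encoded by Nr1d1, and REV-ERBβ, encoded by Nr1d2, bind DNA elements shared with the ROR activators and recruit the NCoR and HDAC3 corepressors. In liver they repress Arntl, which encodes the clock activator BMAL1, and a large set of lipid genes, and they are most abundant in the light phase. BMAL1 pairs with CLOCK or NPAS2 to activate Per, Cry and Nr1d genes, whose products feed back on it. ZT4 lies in the hours when REV-ERB protein accumulates, and the comparison asks which transcripts differ then when the 2 receptors are deleted.

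Levels are given as RPKTM, which is RPKM (reads per kilobase of transcript and depth of the library) multiplied by 10, after quantile normalization by the authors. Differences are RevDKO minus Control on the scale log2(RPKTM + 1) with their standard error (SE) from limma, which understates changes of low genes. Folds are ratios of mean RPKTM. A gene is said to have risen or fallen where limma's p, adjusted over the 13326 genes tested, was under 0.05.

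The targeted genes were examined first. Nr1d1 (NM_145434, mm9 chr11:98629246-98636691, minus strand) stood at 113, 300.1 and 358 RPKTM in the Control libraries and at 215, 158 and 359 RPKTM in the libraries labelled RevDKO. For Nr1d2 (NM_011584, mm9 chr14:19036570-19071620, minus strand) the values were 235, 292 and 388 against 474, 332 and 402 RPKTM. The groups overlapped for both genes, with differences of 0.00 (SE 0.50, adjusted p = 1.0) and 0.42 (SE 0.39, adjusted p = 0.826). These levels therefore do not show the deletion that the labels give, and RevDKO stands for the label in all that follows. The values count reads over whole transcripts, and whether the deleted exons were missing from them was not tested. Scap, which was not targeted in these mice, stood at 501 to 698 RPKTM in Control and 475 to 733 in RevDKO.

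The 6 libraries carried the same set of values after normalization, and their depth is unknown. Pairs of them correlated at 0.932 to 0.969 across genes, which are not independent replicates. Control library 3 correlated at 0.9602, 0.932 and 0.9603 with RevDKO libraries 1, 2 and 3. With Control libraries 1 and 2 it correlated at 0.9495 and 0.9394. The summed level of 10 hepatocyte markers ran from 522687 to 725999 RPKTM in Control and from 557391 to 614065 in RevDKO, and none of the 10 passed the test. Apob stood at 132037 RPKTM in every library, and Alb at 298478 RPKTM in all but Control library 1 (448178 RPKTM). Normalization gives each rank a fixed value, so these top genes largely set the sum. It therefore cannot show whether hepatocyte content was equal. Markers of other liver cells were present at low levels. The 16 macrophage markers summed to 280 to 754 RPKTM in Control and 541 to 905 in RevDKO, and 14 of 16 were higher in RevDKO. The 10 endothelial markers summed to 882 to 1323 and 1295 to 1935 RPKTM, with all 10 higher, and the 11 stellate and fibroblast markers to 414 to 795 and 876 to 1193 RPKTM, groups that did not overlap, with 7 higher. None of these 37 markers passed the adjusted threshold. Before adjustment, limma's p was under 0.05 for 2 macrophage, 3 endothelial and 2 stellate and fibroblast markers, all of them higher in RevDKO. Among all genes 4.80% were higher and 4.73% lower by that measure. The 2 stellate and fibroblast markers were Dcn and Reln, with adjusted p of 0.0868 and 0.0917. Reln stood at 73.3 to 390 RPKTM in Control and 464 to 559 in RevDKO. Cholangiocyte markers summed to at most 84.4 RPKTM, neutrophil markers to at most 8.35, lymphocyte markers to at most 5.32 and erythroid markers to at most 374, with Krt7, Camp and Nkg7 listed at 0 in all 6 libraries. With a macrophage marker score, a mean of log2 levels, as a covariate 101 genes were called (66 higher and 35 lower), 73 of the 78 called without it among them, and of the genes named Acaa1b lost its call (adjusted p = 0.0590). The part of the endothelial and stellate markers was not tested. The labels give hepatocytes as the cell type, while their extraction text also speaks of liver tissue and of endothelial and Kupffer cells, and in such bulk samples fewer cells of a type and less RNA per cell cannot be told apart.

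At ZT4, 55 genes rose and 23 fell in the libraries labelled RevDKO. These 78 were 0.585% of the genes tested (0.413% higher and 0.173% lower). Differences of the 55 ran from 0.62 to 4.61 with a median of 1.72, and those of the 23 from -0.86 to -4.27 with a median of -1.92, while the median over all genes was -0.01 and 48.6% of all genes had a positive difference. At an unadjusted p under 0.05 the directions were balanced, with 640 genes higher (4.80%) and 630 lower (4.73%), 1270 in all (9.53%). The 3 RevDKO values lay above the 3 Control values for 6.14% of all genes and below them for 6.08%, 12.2% together. Of the 78 genes, 76 had groups that did not overlap, the exceptions being Lonrf3 and Cdkn1a.

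**Figure D1:**
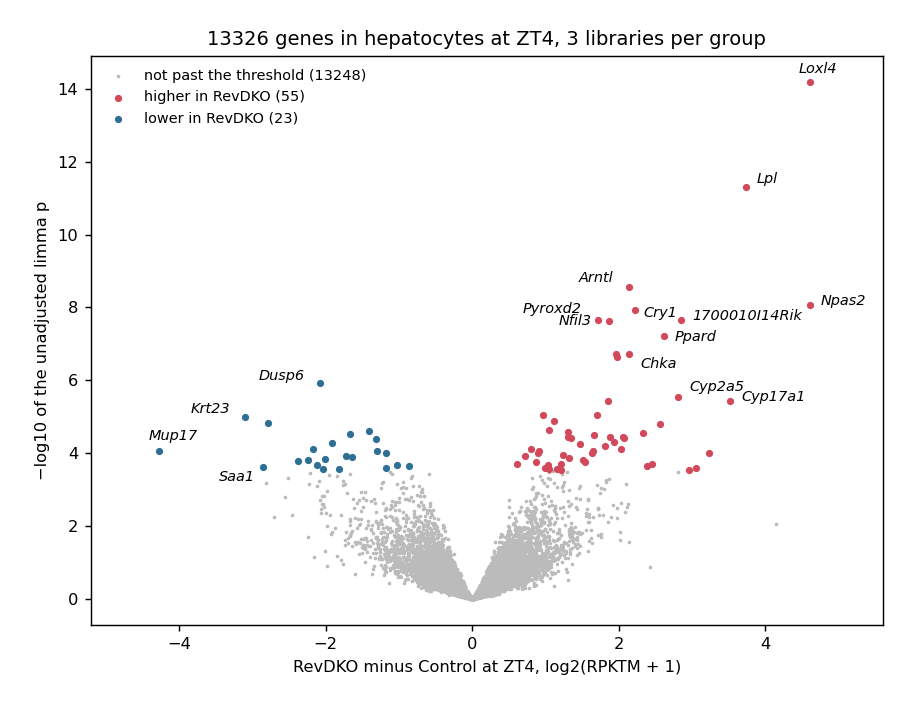
Each point is 1 of 13326 genes, with the difference RevDKO minus Control at ZT4 in log2(RPKTM + 1) on the x axis and −log10 of the unadjusted limma p on the y axis. The 55 genes that rose (red) reach further from the bulk of genes than the 23 that fell (blue), with Loxl4, Npas2 and Lpl at the right edge and Mup17 at the left.

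The number of genes past the threshold depended on single libraries. It was 112 without Control library 1, 21 without Control library 2, 161 without Control library 3, and 39, 32 and 49 without RevDKO libraries 1, 2 and 3. Of the 78 genes, 16 passed in all 6 of these fits, of which 15 rose (among them Loxl4, Npas2, Lpl, Cyp17a1, 1700010I14Rik, Cyp2a5, Ppard, Cry1, Arntl, Chka, Gas7, Nfil3, Klra2 and Pyroxd2) and 1 fell (Dusp6). Every other gene named below as risen or fallen lost its call without at least 1 library, and its highest adjusted p over the 6 fits is given with the library left out.

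Of 18 clock genes tested, 4 rose and none fell, beside 0.413% and 0.173% of all genes. Arntl (NM_001368412, mm9 chr7:120351025-120457640) stood at 58.2, 32.1 and 19.7 RPKTM in Control libraries 1, 2 and 3 and at 155, 143 and 154 RPKTM in RevDKO, where the values were nearly level. It rose 4.11-fold (difference 2.14, SE 0.26, adjusted p = 1.22e-05). Npas2 (NM_008719, mm9 chr1:39251117-39420085), whose product replaces CLOCK as the partner of BMAL1, had 11.4, 1.22 and 0 RPKTM in Control, being listed at 0 in library 3, against 72.4, 77.4 and 68.2 RPKTM. Its difference of 4.60 (SE 0.59, adjusted p = 2.78e-05) was the next to largest of all rises. Clock itself stood at 507, 110 and 318 RPKTM in Control and 580, 578 and 530 in RevDKO. All RevDKO libraries were higher, yet the gene missed the threshold (difference 1.11, SE 0.27, adjusted p = 0.0525), and it passed without Control library 1 (difference 1.58, adjusted p = 0.000421) or 3 (1.25, adjusted p = 0.0366) and with the replicate number as a block (adjusted p = 0.0377). Of 4 clock activators, 2 rose, and the median difference of the list was 1.62.

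Among 8 clock repressors only Cry1, which blocks CLOCK and BMAL1, passed the test. Cry1 (NM_007771, mm9 chr10:84594445-84647799, minus strand) was at 32.9, 26.3 and 15.5 RPKTM in Control and at 141, 98.7 and 108 in RevDKO, a 4.64-fold rise (difference 2.22, SE 0.29, adjusted p = 3.17e-05). The Per genes overlapped between groups. Per1 stood at 57.0 to 70.0 and 66.5 to 88.0 RPKTM, Per2 at 87.2 to 168 and 98.6 to 125, and Per3 at 54.3 to 302 and 112 to 268, with differences of 0.29 (SE 0.35), -0.01 (SE 0.29) and 0.30 (SE 0.54) and adjusted p of 0.880, 0.997 and 0.933. Of 6 clock output factors, Nfil3, which encodes the repressor E4BP4 that competes at D-box elements with DBP, TEF and HLF, was the 1 that passed. Nfil3 had 63.9, 76.4 and 58.1 RPKTM in Control and 207, 293 and 236 in RevDKO, a 3.71-fold rise (difference 1.87, SE 0.25, adjusted p = 3.89e-05). The activators of the same elements did not pass, with differences of 0.15 (SE 0.57) for Dbp, 0.02 (SE 0.34) for Tef and 0.12 (SE 0.22) for Hlf and adjusted p of 0.974, 0.996 and 0.938. The medians of the repressor and output lists were 0.30 and 0.13.

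**Figure D2:**
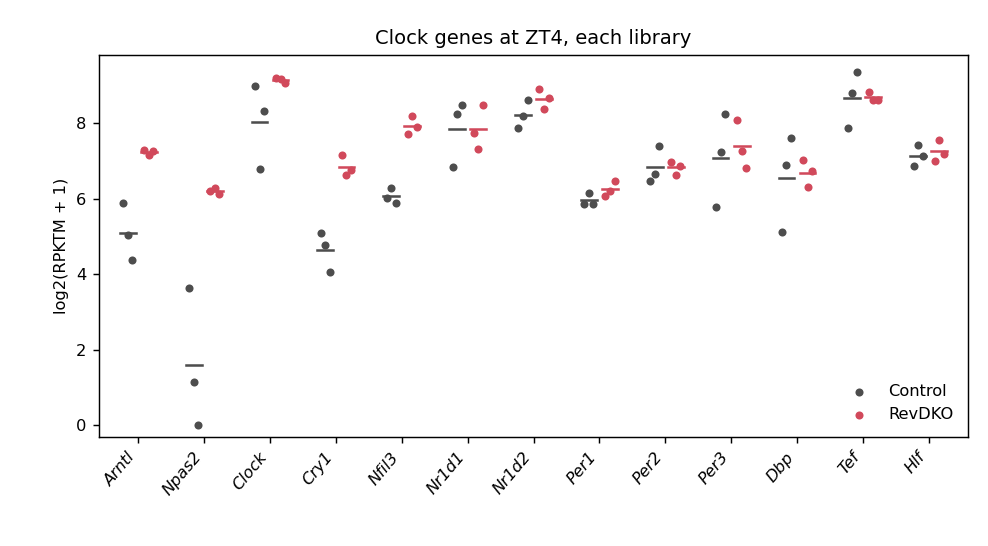
Points show log2(RPKTM + 1) of clock genes in each of 3 Control (grey) and 3 RevDKO (red) libraries at ZT4, and bars show group means. Arntl, Npas2, Cry1 and Nfil3 have RevDKO values above every Control value, while the 2 groups overlap for Nr1d1, Nr1d2, the Per genes, Dbp, Tef and Hlf.

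The Control libraries were spread widely over these same genes. Library 1 held the lowest and library 3 the highest value for Nr1d1, Per3 (54.3, 149 and 302 RPKTM), Dbp (33.7, 117 and 194 RPKTM) and Tef (233, 440.2 and 650.0 RPKTM), and the order was the opposite for Arntl, Npas2 and Cry1. Control means of Dbp were 8.74 RPKTM at ZT22 and 191 at ZT10, and those of Arntl were 116 and 6.49, so library 1 lay toward the ZT22 level and library 3 toward the ZT10 level of both genes. In 12 of the 18 clock genes, or 66.7%, Control library 2 lay between the other 2, which was so for 36.3% of all genes. RevDKO library 2 lay between its other 2 in 6 of the 18, or 33.3%, beside 23.0% of all genes. Over the 18 genes the median distance from the lowest to the highest library, in log2 units, was 0.996 among Control and 0.51 among RevDKO libraries, beside 0.67 and 0.54 over all genes.

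REV-ERBs and RORs bind elements with the letters TAGGTCA, and the windows around RefSeq transcription starts (GRCm38.p6, 250 bases before to 50 after, both strands) were searched for them. Among 16 clock genes with a window, Arntl and Nfil3 held the letters, and they were also the 2 of 61 genes past the threshold with a window that did. By comparison 2.52% of the genes tested and 2.61% of all windows held TAGGTCA. The longer form, with 2 A and any base before it, was found in the Arntl window alone among the 61, and in 0.201% of genes tested. Both sequences are shown because they belong to genes that rose in every library, with the element in capitals. That of Arntl begins 27 bases after a start site (GRCm38.p6 chr7:113207528-113207557, plus strand, 30 bases), and that of Nfil3 lies on the opposite strand in the last 12 of 250 bases before the start (GRCm38.p6 chr13:52981040-52981289, minus strand).
Arntl: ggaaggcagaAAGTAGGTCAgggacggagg
Nfil3: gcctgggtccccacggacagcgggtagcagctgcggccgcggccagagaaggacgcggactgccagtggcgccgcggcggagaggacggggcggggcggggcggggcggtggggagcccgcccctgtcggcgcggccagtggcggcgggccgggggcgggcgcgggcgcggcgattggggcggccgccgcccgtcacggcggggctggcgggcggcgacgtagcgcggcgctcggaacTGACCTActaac
A match of letters is a description and not a bound site. The E-box letters CACGTG stood in 7 of the 61 windows (Aldh3a2, Cers6, Cry1, D630024D03Rik, Galk1, Krt23 and Lonrf3) and in 11.6% of the genes tested, and the D-box letters TTATGTAA in 1 (Gm15348) and in 0.720%.

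Beyond the clock, the largest rises were of Loxl4, Lpl and Cyp17a1. Loxl4 (NM_053083, mm9 chr19:42666769-42687296, minus strand), a lysyl oxidase that crosslinks collagen and elastin, stood at 38.6, 15.0 and 27.8 RPKTM in Control and at 667, 719 and 548 RPKTM in RevDKO. This was the largest rise of all genes, 23.7-fold (difference 4.61, SE 0.33, adjusted p = 8.62e-11). Lpl (NM_008509, mm9 chr8:71404454-71430831), the lipase that frees fatty acids from circulating lipoproteins, went from 19.1, 17.4 and 49.0 to 368, 348 and 339.6 RPKTM, a 12.4-fold rise (difference 3.74, SE 0.35, adjusted p = 3.28e-08). Cyp17a1 (NM_007809, mm9 chr19:46741655-46747490, minus strand), the steroid 17α-hydroxylase, had 55.6, 39.2 and 13.5 RPKTM in Control and 338, 390.4 and 375 in RevDKO, a 10.2-fold rise (difference 3.52, SE 0.63, adjusted p = 0.00314). The lowest RevDKO value of each of these 3 genes was over 5 times the highest Control value.

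Ppard, which encodes the fatty acid receptor PPARδ, rose 6.50-fold from 17.2, 13.2 and 13.9 RPKTM to 100.1, 79.3 and 108 RPKTM (difference 2.62, SE 0.37, adjusted p = 9.01e-05). It was the 1 called member of 23 other nuclear receptors tested. Of these, 5 were lower and 1 higher at an unadjusted p under 0.05, beside 4.73% and 4.80% of all genes. Cyp2a5, a drug-metabolizing P450 known for hydroxylating coumarin, rose 7.06-fold from 873, 849 and 578 RPKTM to 6999.6, 4734 and 4509 RPKTM (difference 2.81, SE 0.49, adjusted p = 0.00265). Its near-identical neighbour Cyp2a4 stood at 2.18 to 5.39 RPKTM in Control and 18.3 to 38.3 in RevDKO without passing (difference 2.42, SE 1.55, adjusted p = 0.680), though it passed when the RevScapTKO libraries were left out of the fit (adjusted p = 0.00644), and reads of the pair can be split between them. Gstm2, a glutathione S-transferase, had 27.1, 18.5 and 7.87 RPKTM in Control and 101, 189 and 50.5 in RevDKO (difference 2.56, SE 0.50, adjusted p = 0.00968; 0.114 without RevDKO library 2).

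The other large rises had lower levels. Slc13a2, a transporter of citrate and other dicarboxylates, stood at 5.54 to 6.17 RPKTM in Control and 42.8 to 61.5 in RevDKO (difference 2.95, SE 0.72, adjusted p = 0.0493), and lost its call without any of the 6 libraries (highest 0.241, Control library 2). Slc13a2os lies on the opposite strand over 8382 bases of it and rose from 0.682 to 2.70 RPKTM up to 18.4 to 29.0 RPKTM (difference 3.23, adjusted p = 0.0275; 0.220 without Control library 2). Since it is not given whether counting used the strand, the 2 genes cannot be told apart. 1700010I14Rik rose from 0.863 to 3.92 RPKTM up to 18.3 to 25.3 RPKTM (difference 2.85, SE 0.38, adjusted p = 3.89e-05). The noncoding B930025P03Rik, Gm15348 and D630024D03Rik had differences of 3.05, 2.46 and 2.33 and adjusted p of 0.0474, 0.0427 and 0.0139, with highest values of 0.242 and 0.422 without Control library 2 and 0.0726 without RevDKO library 3.

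Several rises outside the rule for named genes were singled out after their values were seen. They act in choline, methionine and glycine metabolism or held in all 6 fits that left out 1 library. Chka, choline kinase, the entry step of phosphatidylcholine synthesis from choline, stood at 179, 94.7 and 118 RPKTM in Control and at 552, 566 and 563 in RevDKO (difference 2.14, SE 0.32, adjusted p = 0.000234). The groups lay far apart, with the 3 RevDKO values within 14 RPKTM of each other. Mtrr, the reductase that keeps methionine synthase active, went from 17.4 to 22.8 up to 34.4 to 42.8 RPKTM (difference 0.87, adjusted p = 0.0394; 0.251 without RevDKO library 2). Gldc of the glycine cleavage system went from 439 to 747 up to 977 to 998 RPKTM (difference 0.81, adjusted p = 0.0250; 0.287 without Control library 2). Pyroxd2 (difference 1.72), Gas7 (1.97) and Klra2 (1.85) were also among the genes that rose in all 6 fits, with adjusted p of 3.89e-05, 0.000247 and 0.00314 over all libraries, Klra2 at 1.19 to 1.66 RPKTM in Control and 7.04 to 9.63 RPKTM in RevDKO.

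**Figure D3:**
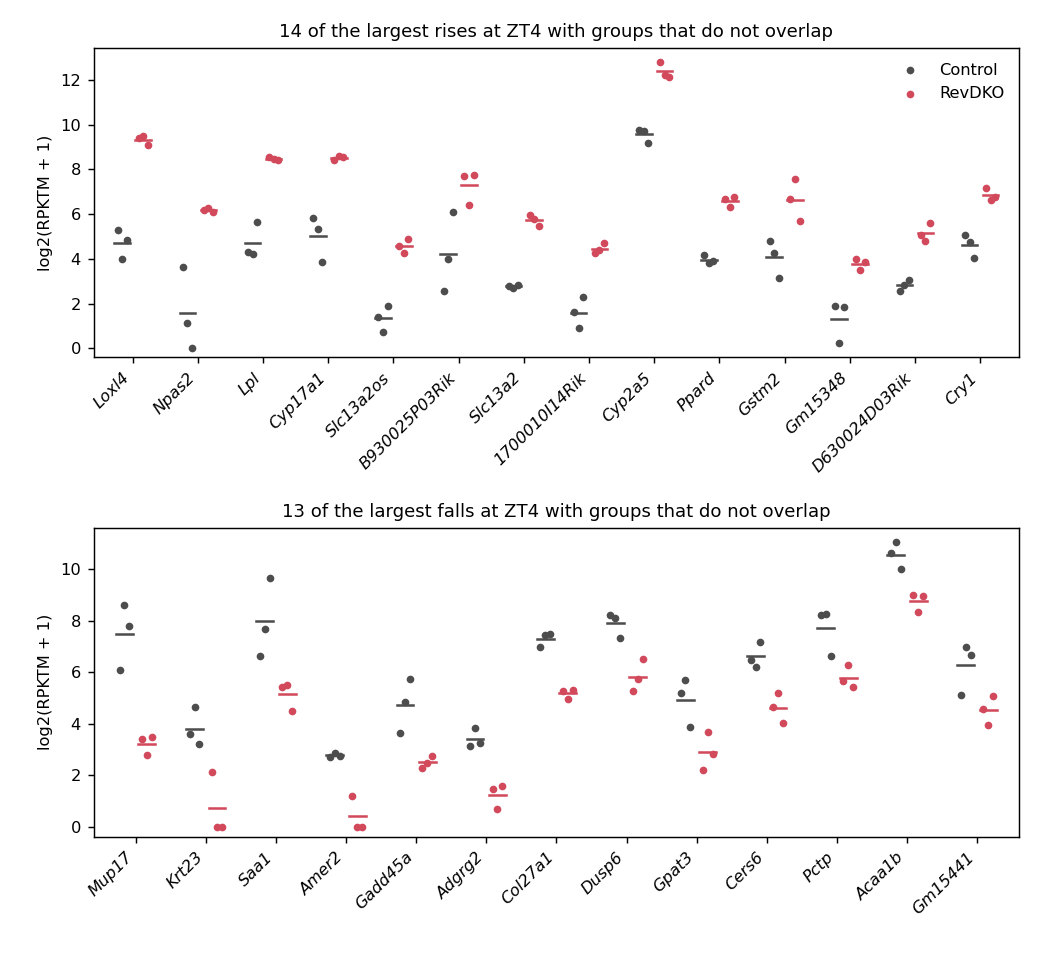
Points show log2(RPKTM + 1) in each of 3 Control (grey) and 3 RevDKO (red) libraries at ZT4 for 14 of the largest rises (top) and 13 of the largest falls (bottom) among genes past the threshold whose groups did not overlap, and bars show group means. Krt23 and Amer2 are listed at 0 in 2 of 3 RevDKO libraries, and the Control libraries of Npas2 and Saa1 span a wide range.

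Among the genes that fell, Dusp6, a phosphatase that switches off ERK kinases, was the 1 that passed in all 6 fits leaving out a library. With only the 9 libraries at ZT4 fitted, 9 genes were called higher and 0 lower, so Dusp6 lost its call there. Dusp6 (NM_026268, mm9 chr10:98725865-98730123) stood at 300.1, 276 and 162 RPKTM in Control and at 37.3, 51.9 and 89.7 in RevDKO, and fell by 2.07 on the log2 scale (SE 0.345, adjusted p = 0.00123). The largest fall was of Mup17 (NM_001200006, mm9 chr4:61252963-61256864, minus strand), a major urinary protein that carries pheromones, with 66.3, 385 and 223 RPKTM in Control against 9.51, 5.96 and 10.1 (difference -4.27, SE 0.95, adjusted p = 0.0260; 0.242 without Control library 2). Mup genes are nearly identical in sequence and reads can be shared among them. Of 28 members of the urinary protein and growth hormone list tested, Mup17 alone passed, beside 0.173% of all genes that fell. The list median was -0.35. Mup1, Mup2 and Mup3 had differences of -0.01 (SE 1.08), -2.70 (SE 0.91) and -0.39 (SE 0.70) and adjusted p of 0.999, 0.248 and 0.932.

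Saa1, an acute phase apolipoprotein, stood at 98.8, 206 and 806 RPKTM in Control and at 41.7, 44.7 and 21.4 RPKTM in RevDKO (difference -2.86, SE 0.69, adjusted p = 0.0452; 0.167 without RevDKO library 3). It was the 1 of 22 acute phase genes that passed. Another 5 of the list were lower at an unadjusted p under 0.05 and 1 was higher, beside 4.73% and 4.80% of all genes. A negative difference was found in 16 of 22, beside 51.4% of all genes, and the list median was -0.45. Saa2 stood at 17.8 to 171 RPKTM in Control and 8.94 to 24.1 in RevDKO, overlapping, while Saa3 and Saa4 had RevDKO values below every Control value, with differences of -1.91 (SE 0.73), -1.05 (SE 0.55) and -1.02 (SE 0.38) for the 3 genes and adjusted p of 0.363, 0.564 and 0.338. Saa1 and Saa2 are close copies whose reads can be mixed.

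The keratin gene Krt23 had 11.04, 23.9 and 8.23 RPKTM in Control against 3.37, 0 and 0 (adjusted p = 0.00696; 0.0933 without Control library 2), and Amer2 had 5.55, 6.28 and 5.74 against 1.30, 0 and 0 RPKTM (adjusted p = 0.0371; 0.220 without RevDKO library 2). These are low genes with zeros, for which no fold is given. Gadd45a, a gene of the DNA damage response, fell from 11.4, 27.6 and 51.8 to 3.87, 4.52 and 5.69 RPKTM (difference -2.23, SE 0.52, adjusted p = 0.0360; 0.203 without Control library 2), and shares bases with E230016M11Rik on the opposite strand. Cdkn1a, which encodes the cell cycle inhibitor p21, moved the other way within the same list of 21 cell cycle genes, from 32.0, 3.27 and 4.56 to 29.2, 79.4 and 44.5 RPKTM, with overlapping groups (difference 2.38, SE 0.57, adjusted p = 0.0443; 0.453 without Control library 2). Adgrg2 and the fibrillar collagen gene Col27a1 fell, with differences of -2.17 and -2.12 (adjusted p = 0.0250 and 0.0438; 0.203 and 0.241 without Control library 2). Col27a1 and Loxl4 were the 2 called members of 17 matrix genes, in opposite directions, beside 0.173% lower and 0.413% higher among all genes. At an unadjusted p under 0.05, 2 of the 17 were higher and 2 lower, beside 4.80% and 4.73% of all genes. The list median was 0.14.

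Lipid enzymes were found on both sides. Gpat3, an acyltransferase of triglyceride synthesis, fell from 35.4, 51.4 and 13.6 to 3.57, 11.8 and 5.99 RPKTM (difference -2.03, SE 0.49, adjusted p = 0.0479; 0.448 without Control library 2). The ceramide synthase gene Cers6 stood at 73.2 to 145 RPKTM in Control and 15.2 to 35.7 in RevDKO (difference -2.005, SE 0.46, adjusted p = 0.0355; 0.164 without RevDKO library 3). Pctp, which encodes a phosphatidylcholine transfer protein, fell from 98.5 to 307 RPKTM down to 42.1 to 76.9 RPKTM (difference -1.92, SE 0.41, adjusted p = 0.0193; 0.213 without Control library 2). In the list of lipid droplet proteins, lipases and uptake genes only Lpl passed of 26 tested, with a median of -0.26. At an unadjusted p under 0.05, 7 were lower and 2 higher, beside 4.73% and 4.80% of all genes. Differences were negative for 19 of 26, beside 51.4% of all genes.

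Fatty acid oxidation leaned to lower levels without passing as a group of calls. Acaa1b, a peroxisomal thiolase, was the 1 of 26 that passed, at 1593, 2141 and 1030.0 RPKTM in Control and 511, 318 and 492 in RevDKO (difference -1.82, SE 0.44, adjusted p = 0.0476; 0.374 without Control library 2). It has a near copy in Acaa1a and overlaps Dlec1 by 204 bases. At an unadjusted p under 0.05, 9 of the 26 were lower and 2 higher, beside 4.73% and 4.80% of all genes, and the median was -0.42. Ppara, the receptor that drives these genes in fasting, stood at 1465, 2173 and 2631 RPKTM in Control and 1255, 1275 and 1431 in RevDKO, with groups that did not overlap (difference -0.62, SE 0.24, adjusted p = 0.345). Cpt1a and Cpt2 of the carnitine shuttle had differences of -0.46 (SE 0.22, adjusted p = 0.507) and -0.45 (SE 0.22, adjusted p = 0.524). Also below Control were Aldh3a2, a fatty aldehyde dehydrogenase, and Slc22a5, the carnitine transporter, with differences of -1.41 and -1.02 (adjusted p = 0.0133 and 0.0427; 0.203 and 0.355 without Control library 2), and both were singled out after their values were seen.

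Acyl-CoA thioesterases showed how 1 library set a call. Acot1, which hydrolyses long-chain acyl-CoA in the cytosol, stood at 74.1, 93.1 and 6.92 RPKTM in Control and at 7.65, 4.53 and 10.5 in RevDKO. Acot2 had 16.9, 19.6 and 2.69 against 3.98, 5.76 and 4.46 RPKTM, and Acot3 had 12.5, 30.3 and 0.841 against 0, 1.27 and 0 RPKTM. In each of them Control library 3 was at the RevDKO level. None of 10 thioesterases passed over all libraries, with differences of -2.22 (SE 0.59), -0.96 (SE 0.47) and -2.81 (SE 0.74) and adjusted p of 0.0831, 0.523 and 0.0807. Without Control library 3 all 3 passed, at adjusted p of 0.000213, 0.0334 and 0.00237, and Acot3 also passed with the replicate number as a block (adjusted p = 0.0294). Control library 3 also held the lowest value of Aldh3a2, Pctp, Gpat3 and Acaa1b.

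No member passed in the lists of SREBP machinery (7 tested), cholesterol synthesis and uptake (23) or fatty acid and triglyceride synthesis (23), whose medians were 0.09, -0.07 and 0.28. Srebf1 stood at 1708, 1220.0 and 2226 RPKTM in Control and 1358, 1081 and 976 in RevDKO (difference -0.56, SE 0.38, adjusted p = 0.699), and Srebf2 had a difference of -0.19 (SE 0.28, adjusted p = 0.913). The lipogenic genes Acly, Acss2 and Acaca had differences of 0.59 (SE 0.33), 0.72 (SE 0.32) and 0.32 (SE 0.42) and adjusted p of 0.595, 0.480 and 0.898. Bile acid genes were also without a call among 21 tested. Cyp7a1, the rate-limiting enzyme of bile acid synthesis, had 948, 1273 and 894 RPKTM in Control and 811, 2054 and 1978 in RevDKO (difference 0.54, SE 0.53, adjusted p = 0.833). Cyp8b1, which sets the share of cholic acid, stood higher in every RevDKO library, at 2123 to 2691 RPKTM against 624 to 1485 RPKTM (difference 1.07, SE 0.32, adjusted p = 0.153), and Cyp7b1 overlapped (0.01, SE 0.51, adjusted p = 0.998).

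Amino acid and drug metabolism gave single calls. Ddc, the aromatic amino acid decarboxylase, was the 1 of 31 urea cycle and amino acid genes that passed, at 176, 119 and 115 RPKTM in Control and 271, 213 and 279.5 in RevDKO (difference 0.90, SE 0.20, adjusted p = 0.0275; 0.213 without Control library 2). In that list 24 of 31 differences were positive, 5 genes were higher and none lower at an unadjusted p under 0.05, and the median was 0.18, beside 48.6% positive, 4.80% higher and 4.73% lower among all genes. Kynu, a tryptophan-degrading enzyme chosen after its values were seen, rose from 701, 719 and 692 to 1453, 1602 and 1328 RPKTM (difference 1.05, SE 0.21, adjusted p = 0.0133; 0.0832 without RevDKO library 2). Among 30 Cyp2 and Cyp3a genes, Cyp2a5 rose and Cyp3a13 fell, the latter from 504, 708 and 803 to 361, 394 and 338 RPKTM (difference -0.86, SE 0.21, adjusted p = 0.0439; 0.242 without Control library 2), with a list median of 0.14. Among all genes 0.413% rose and 0.173% fell. Gstm2 alone passed among 21 glutathione S-transferases. Of these, 5 were higher and 4 lower at an unadjusted p under 0.05, beside 4.80% and 4.73% of all genes.

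Immediate early genes had the lowest median of the 26 lists, -0.82 over 13 tested, yet none of the 13 was called. By limma's p before adjustment (under 0.05), 5 of them were lower and none higher, where all genes gave 4.73% lower and 4.80% higher. Jun stood at 181, 354 and 179 RPKTM in Control and at 75.3, 53.1 and 246 in RevDKO (difference -1.17, SE 0.54, adjusted p = 0.492). Fos and Fosl2 had differences of -0.60 (SE 0.54) and 0.15 (SE 0.42) with adjusted p of 0.809 and 0.968. Gm15441 fell from 33.8, 126 and 102 to 22.9, 14.6 and 32.7 RPKTM (difference -1.73, SE 0.39, adjusted p = 0.0303; 0.350 without Control library 2). It covers on the opposite strand the whole of Txnip, the glucose-responsive inhibitor of thioredoxin, which had 113, 630.2 and 550.2 against 94.8, 52.8 and 194 RPKTM (difference -1.76, SE 0.47, adjusted p = 0.0868). Txnip passed without Control library 1 (adjusted p = 0.00132), without RevDKO library 3 (0.0328) and with the macrophage covariate (0.00981), and the pair cannot be told apart without strand.

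The remaining lists held no call: ROR factors and REV-ERB corepressors (8 tested, median -0.31), glucose, glycogen and fructose enzymes (20, 0.20), insulin and feeding response (18, 0.14), hepatokines and growth factors (26, -0.06), heat shock and cold-inducible genes (15, -0.06), unfolded protein and integrated stress response (22, 0.02) and mitochondrial respiratory chain (34, 0.01). In all, 13 of 26 lists had at least 1 called member, and 17 of the 78 genes belonged to a list. These 17 were among 494 list symbols tested, beside 0.585% of all genes called. The lists were chosen with earlier results of these data known, so this count is no independent result.

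**Figure D4:**
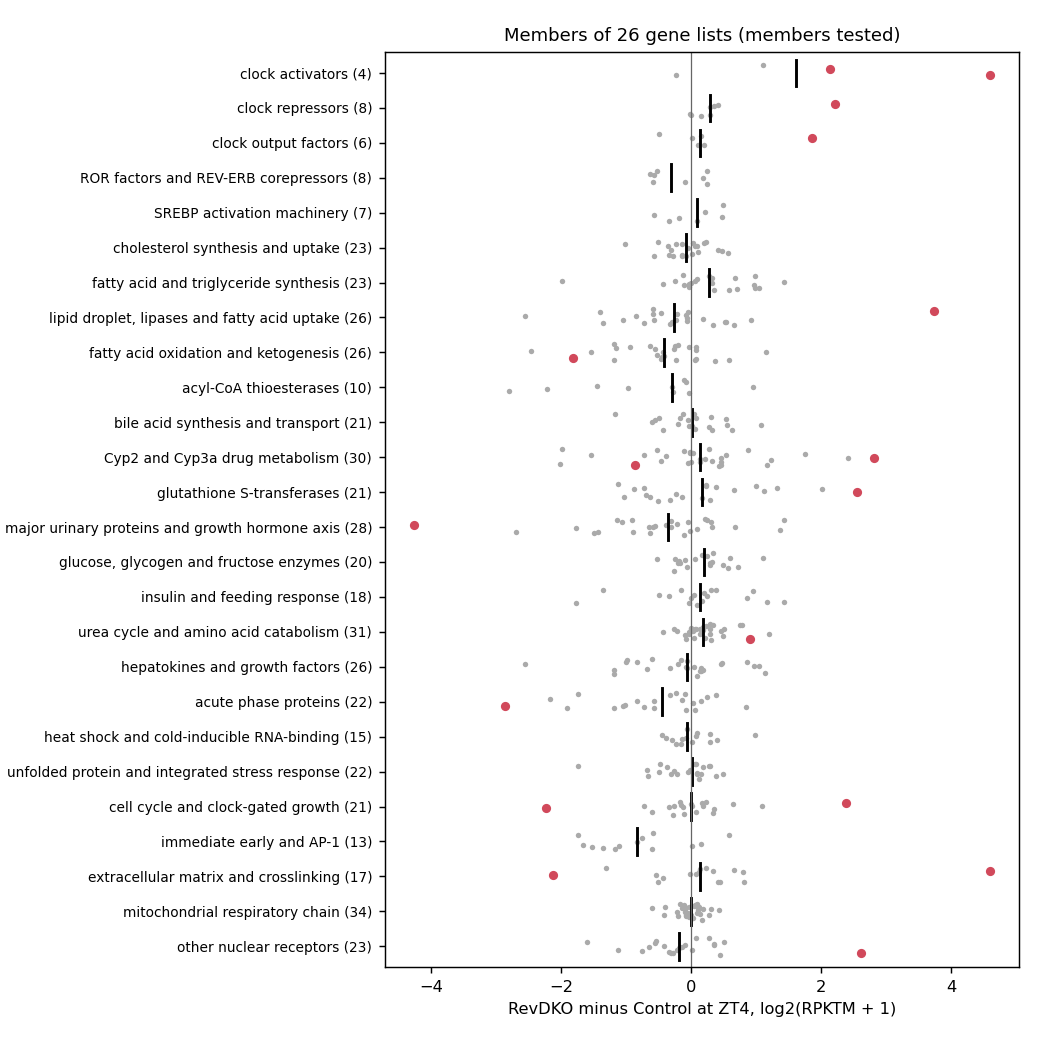
Each point is a list member, placed by its difference RevDKO minus Control at ZT4 in log2(RPKTM + 1), in rows of 26 gene lists with the number of members tested in brackets. Red points passed the adjusted threshold and black bars mark list medians, which lie furthest from 0 for the clock activators (1.62) and the immediate early genes (-0.82).

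ZT4 was then set beside the other 3 time points, where the same genotypes gave 18 further libraries. No gene's difference at ZT4 departed from the mean of its differences at ZT10, ZT16 and ZT22 past the adjusted threshold of limma, 0 of 13326 or 0.00%, with a smallest adjusted p of 0.694. At an unadjusted p under 0.05 there were 514 (3.86%). The genes called at ZT4 were mostly displaced the same way later. Of the 55 that rose, 45 had a positive difference at all 3 other times, beside 17.1% of all genes, and of the 23 that fell, 21 had a negative difference at all 3, beside 18.8%. At ZT10 44 of the 55 had RevDKO values above every Control value (7.97% of all genes), at ZT16 35 (6.88%) and at ZT22 33 (8.08%). Of the 23, the RevDKO values lay below every Control value for 19 at ZT10 (9.09% of all genes), 13 at ZT16 (7.71%) and 14 at ZT22 (8.18%).

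The 55 genes had median differences of 1.72 at ZT4, 1.92 at ZT10, 0.72 at ZT16 and 0.62 at ZT22, and the 23 genes had -1.92, -1.53, -0.97 and -0.71. These genes were chosen for their difference at ZT4, so the ZT4 medians are larger by that choice. The later values come from other libraries, but those libraries also entered the estimate of spread behind the calls. Counts of groups that do not overlap at later times are therefore not fully independent of the choice. Cry1 differed at ZT4 and ZT10 (2.22 and 2.33) and little at ZT16 (0.13) or ZT22 (-0.005). Arntl differed by 2.14 and 4.202 at ZT4 and ZT10. Its differences were smaller at ZT16 (0.70) and ZT22 (0.29), times at which its Control means reached 83.9 and 116 RPKTM. Arntl still stood above every Control value in RevDKO at ZT16 (123 to 142 against 63.1 to 99.2 RPKTM). The same held at ZT22 (139 to 148 against 112 to 119 RPKTM). Loxl4 and Cyp17a1 stayed apart at every time, with differences of 5.82, 4.49 and 2.57 and of 2.65, 2.89 and 3.35 at ZT10, ZT16 and ZT22. Lpl had 3.89, 2.17 and 0.80, and Dusp6 had -1.89, -0.12 and -0.34. Departures of ZT4 were 1.45 for Lpl, 1.399 for Cry1 and -1.29 for Dusp6, none past the threshold (adjusted p = 0.912, 0.912 and 1.0). The Nr1d1 means at ZT10, ZT16 and ZT22 were 86.2, 11.4 and 8.28 RPKTM in Control. In RevDKO they were 188, 66.1 and 53.2 RPKTM, so that the transcript named in the deletion was higher in RevDKO at those times. Nr1d2 differed by 0.009, 0.97 and 1.09 at these times. Neither gene was tested at a single later time.

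**Figure D5:**
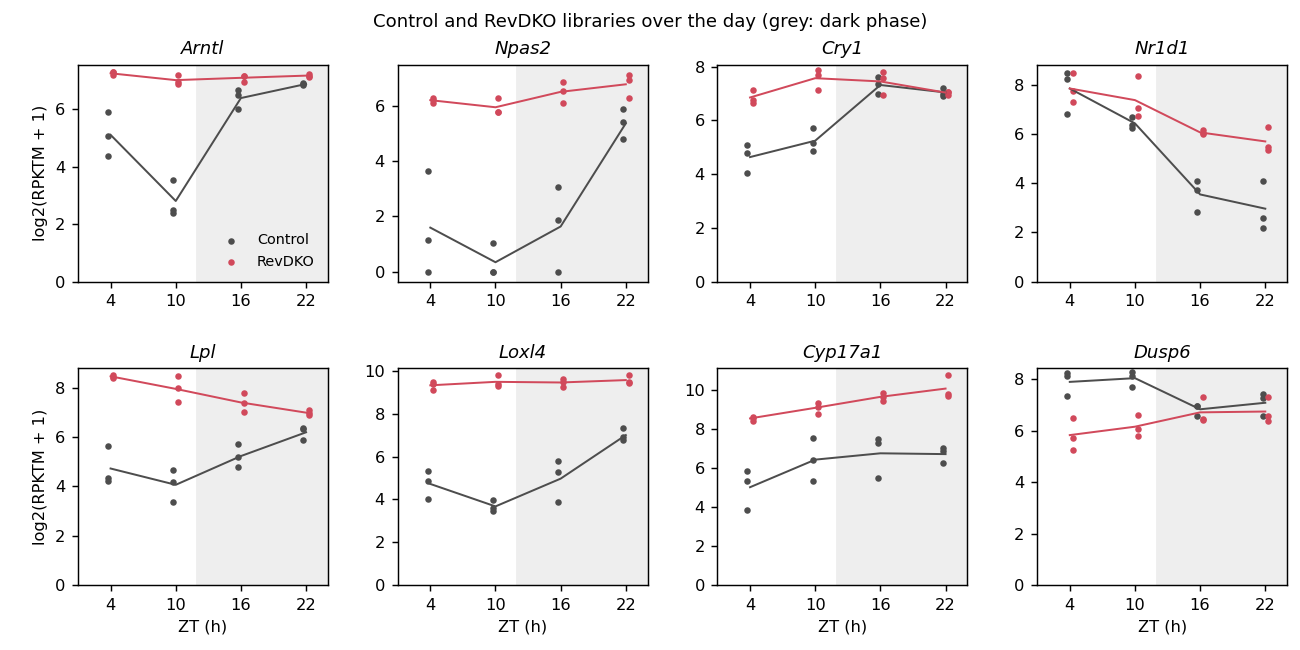
Points show log2(RPKTM + 1) in each library and lines join the means of the 3 Control (grey) and 3 RevDKO (red) libraries at ZT4, ZT10, ZT16 and ZT22, with the dark phase shaded. For Arntl and Cry1 the lines are apart at ZT4 and ZT10 and close at ZT22, while those of Loxl4 and Cyp17a1 are apart at all 4 times and those of Dusp6 come close in the dark phase.

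The series also holds 3 libraries at ZT4 labelled RevScapTKO, in which Scap was deleted as well, and these share the Control libraries, so only values are given. Scap stood at 299, 175 and 158 RPKTM in them. Arntl (141, 107 and 128 RPKTM), Npas2 (58.5, 59.2 and 74.6) and Cry1 (112, 121 and 74.3) were above every Control value, as was Loxl4 (731, 271 and 539). Ppard (24.1, 27.3 and 27.5 RPKTM), Slc13a2 (18.6, 3.22 and 0.977), Lpl (77.0, 87.5 and 139) and Cyp17a1 (128, 165 and 31.6) had means between those of Control and RevDKO and nearer to Control. Gpat3 (26.7, 32.7 and 48.4) lay within the Control range. No test of RevScapTKO against RevDKO was made here.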

How the data were processed

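Total RNA of cells labelled as hepatocytes was depleted of ribosomal RNA and made into stranded libraries. The authors aligned reads to mm9 with STAR, quantified RefSeq transcripts with Homer (versions and strand setting not given in the sources used here) and deposited quantile-normalized RPKM values scaled by 10 (RPKTM). All 36 hepatocyte libraries held identical sorted values, so depth is unknown, precision rests on the spread between libraries, and a shift of most genes would be hidden.

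Here the transcript of highest mean stood for each of 25095 symbols, and the 13326 symbols with over 5 RPKTM in at least 3 libraries were tested. limma 3.58.1 (R 4.3.3, mean-variance trend) was fitted to log2(RPKTM + 1) with 1 mean per genotype and time over all 36 libraries, which share the estimate of spread. Contrasts were RevDKO minus Control at ZT4, and that difference minus the mean of those at ZT10, ZT16 and ZT22, with Benjamini-Hochberg adjustment over all genes (2-sided). The fit was tested on simulated data. Named were the targeted genes, the 14 largest rises and 14 largest falls with groups that do not overlap, called members of 26 lists and up to 3 uncalled ones in list order; others are marked as chosen after their values were seen, and a few items are not reported here. Genes and lists were chosen with earlier results of these data known. Alternatives changed the pseudocount, filter, transcripts, centring, libraries fitted, variance model, a macrophage covariate and a replicate block. The 3 other deposited tables were not used. Coordinates of genes are mm9, and promoter windows are RefSeq GRCm38.p6 (61 of the 78 called symbols matched).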

Additional observations from a re-analysis of the deposited data

Results flagged for a closer look

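Of the genes named, 3 had groups that did not overlap at ZT4 in 1 direction and at another time in the opposite direction. Ddc was higher in every RevDKO library at ZT4 and lower in every one at ZT22 (difference -0.14). Cd38, an enzyme that consumes NAD, stood at 5.59 to 20.7 RPKTM in Control and 28.9 to 58.9 in RevDKO at ZT4, and was lower at ZT22 (difference -0.25). Mtrr was lower at ZT10 (difference -0.32) and at ZT22 (difference -0.094). The contrast between ZT4 and each of these times was not tested, and against the mean of the 3 other times none of the 3 genes passed limma's adjusted threshold (adjusted p = 1.0 for Ddc, 0.912 for Cd38 and 0.912 for Mtrr). At ZT10 9.09% and at ZT22 8.18% of all genes had RevDKO values below every Control value. Groups of 3 are too small for a check of single outlying libraries.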

How the results depend on the processing

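The count of 78 genes was within 1.5 times under 7 of 12 alternatives that kept all 6 libraries. It was 51 with no filter on low values, 134 with all transcripts as separate rows, 129 when only Control and RevDKO libraries of 4 times were fitted, 9 with only the 9 libraries at ZT4 and 12 with only the 6 libraries compared. Leaving out 1 library gave 21 to 161. No gene departed at ZT4 under any alternative except the one with no filter, which gave 3 (A2m, Slc16a14 and Zfp296). No called gene changed direction in 1404 recomputed values, 918 kept the call and 486 lost it. Fewer libraries in the fit leave fewer degrees of freedom for the spread, and the cause of the other shifts was not tested. Deviations of same-numbered libraries from their group means correlated at -0.04 to 0.17, with 2 of 3 over 0.1 and 3 of 6 libraries closest to their own number. With 3 libraries per group these correlations cannot show whether the replicate number pairs the libraries. With the replicate block 92 genes were called, 73 of the 78 among them.

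Among genes without a call, the macrophage marker covariate turned the direction of Per2 (0.019), Tef (-0.035), Mup1 (0.69), Mup3 (0.052) and Fosl2 (-0.044). Leaving out 1 library gave differences from -0.51 to 0.32 for Nr1d1, -0.050 to 0.26 for Scap, -0.20 to 0.27 for Per2, -0.35 to 0.88 for Per3, -0.56 to 0.69 for Dbp, -0.38 to 0.36 for Tef, -0.035 to 0.26 for Hlf, -0.32 to 0.58 for Cyp7b1, -0.42 to 0.045 for Srebf2, -0.32 to 0.52 for Mup1 and -0.48 to 0.76 for Fosl2. Clock also passed with the macrophage covariate (adjusted p = 0.0324).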

Other observations

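Further genes past the threshold, chosen after their values were seen, belonged to no list. Grb10, an adaptor that restrains insulin and growth factor receptors, stood at 3.78, 6.57 and 8.60 RPKTM in Control and 20.9, 13.9 and 15.8 in RevDKO (difference 1.33, SE 0.30, adjusted p = 0.0330; 0.162 without RevDKO library 1). Igfbp7, a secreted protein also made by endothelial cells, had 35.2, 17.0 and 41.4 against 59.1, 89.7 and 74.5 RPKTM (difference 1.30, SE 0.27, adjusted p = 0.0155; 0.242 without Control library 2), beside summed endothelial markers of 882 to 1323 and 1295 to 1935 RPKTM, whose part in it was not tested. The RNA-binding genes Cpeb2 and Cpeb4 rose by 1.24 and 0.72 on the log2 scale (adjusted p = 0.0298 and 0.0303; 0.444 without Control library 2 and 0.153 without RevDKO library 3). Galk1, galactokinase, fell from 81.7, 84.4 and 53.7 to 32.5, 21.7 and 42.8 RPKTM (difference -1.18, SE 0.26, adjusted p = 0.0275; 0.297 without RevDKO library 2). Slc41a2, a magnesium transporter, fell by 1.65 on the log2 scale (adjusted p = 0.0321; 0.157 without RevDKO library 2).

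Of the 78 genes, 16 lay on chromosome 11 (1.49% of its 1075 genes tested) and 9 on chromosome 19 (1.80% of 501), beside 0.585% of all genes tested, and these 2 were singled out as the highest of 18 chromosomes with a call. These include overlapping pairs, Slc13a2 with Slc13a2os and Hectd2 with Hectd2os, and no test was made.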
